A study of Mus musculus with 10 samples.

Results

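The liver sinusoidal endothelial markers described here were 10 genes whose products mark the thin, fenestrated endothelium that lines the hepatic sinusoids: Lyve1, Stab1, Stab2, Fcgr2b, Clec4g, Kdr, Pecam1, Cdh5, Eng and Tek. They were taken as known markers of this cell type, and every array probe annotated to them was taken, which gave 21 of 45281 probes and 10 of 19057 genes. Of these 21 probes, 16 were above background on at least 5 of the 10 arrays and were tested, and each of the 10 genes kept at least 1 tested probe. Liver RNA was measured on Illumina mouse bead arrays in 5 mice fed a Western diet with sugar water (WD SW) and in 5 mice fed a chow diet (CD), all after 8 weeks. The WD SW was a high fat, high carbohydrate diet containing cholesterol, given with water holding fructose and glucose, and CD mice drank normal water. All mice carried the same strain, 129S1/SvImJ;C57Bl/6J, which the study describes as 1 inbred isogenic line. By the study, the mice were males and entered the diets at 8 to 12 weeks of age. The labels name separate samples, and p-values therefore set the difference between the diets against the spread of these samples within a diet.

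Sinusoidal endothelial cells take up waste macromolecules from portal blood, such as hyaluronan, denatured collagen and small immune complexes, through scavenger and lectin receptors. They lack a continuous basement membrane, and their fenestrae let plasma reach the hepatocytes. Their growth and fenestration depend on vascular endothelial growth factor signaling, and they share with other endothelium the junction proteins and the receptors for angiopoietins and bone morphogenetic proteins. Of the markers, Stab2, Clec4g and Lyve1 are the most typical of the sinusoid, although Lyve1 is also a marker of lymphatic endothelium and of some macrophages, Stab1 and Fcgr2b are also made by macrophages, Fcgr2b by B cells, and Pecam1 by platelets and leukocytes. In whole liver, fewer cells of a type and less RNA per cell cannot be told apart.

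All 10 markers were above background on arrays of both diets, and the labelled tissue, liver, thus showed its sinusoidal endothelial markers. Read from the brightest tested probe of each gene, 3 of the 10 markers were higher in WD SW-fed mice (Lyve1, Fcgr2b and Eng) and 1 was lower (Kdr). Among all 10187 genes read in the same way, 14.5% were higher in WD SW livers, 15.4% were lower and 30.0% changed in either direction (limma, Benjamini-Hochberg adjusted p under 0.05 over 17368 probes). The 4 of 10 markers that passed lay near that background. The median change of the 10 markers was 0.26 on the log2 scale, WD SW minus CD, against -0.05 over all genes. The 6 markers that did not pass were Stab1 and Stab2, Clec4g, Pecam1, Cdh5 and Tek. Changes are log2 differences of background-corrected, quantile-normalized signals, so 1 unit is a doubling, and they are given with the standard error (SE).

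**Figure D1:**
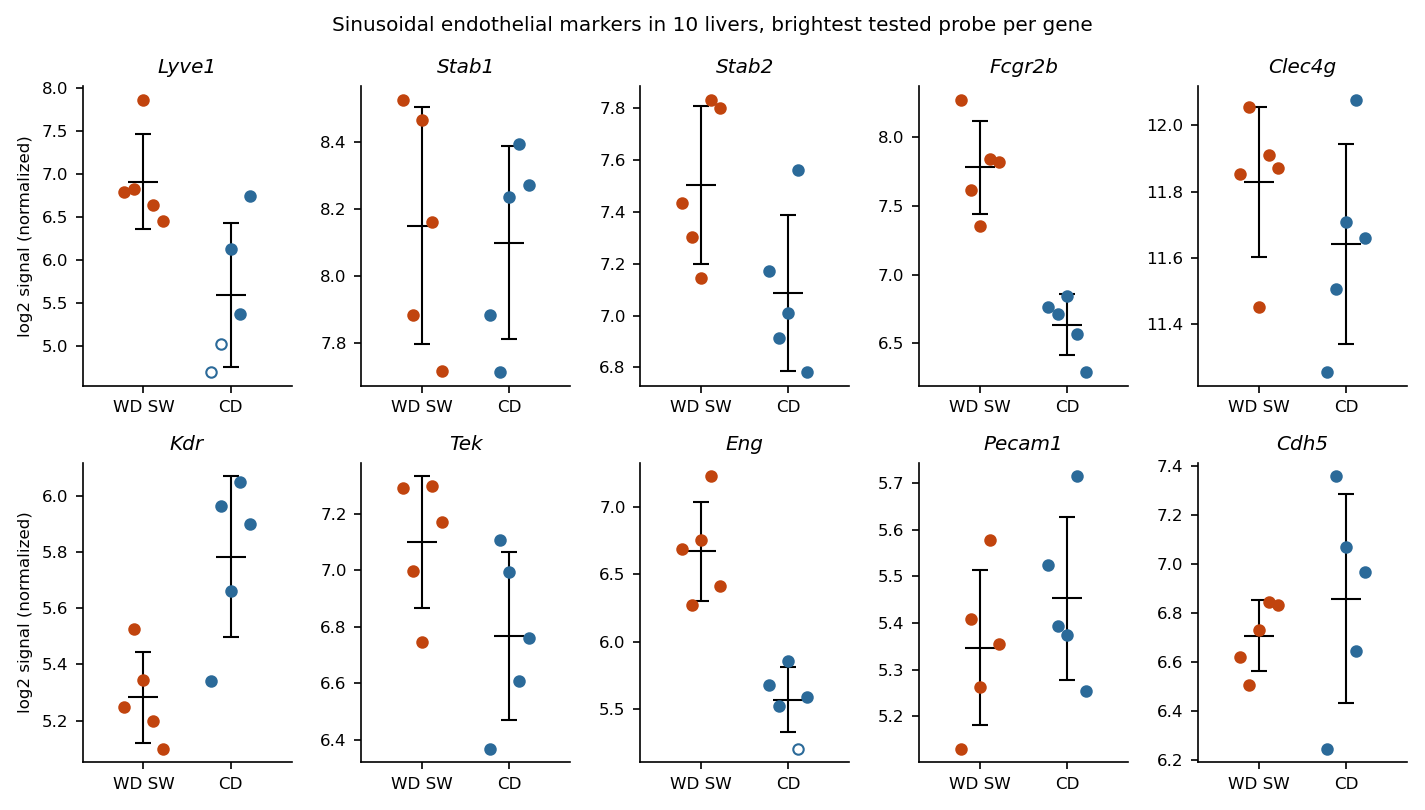
Normalized log2 signal of the brightest tested probe of each of the 10 markers, with 1 point per array, the 5 WD SW arrays to the left of the 5 CD arrays, bars for the mean and SD, and open points where the probe was not above background. The WD SW and CD points stand apart without overlap for Fcgr2b and Eng only, while 1 CD array reaches into the WD SW range for Lyve1 and 1 CD array lies within it for Kdr.

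A feature of the arrays bears on every value below. The 95th percentile of the deposited signals was 870 to 1023 on the 5 WD SW arrays and 921 on CD replicate 1, but only 403 to 548 on the other 4 CD arrays. The share of probes above background was 41.6% to 45.8% on the WD SW arrays, 41.2% on CD replicate 1 and 33.7% to 36.5% on the other CD arrays, while the background level itself was alike, at 78.0 to 88.1 units. The dimmer arrays were thus all of CD livers, and diet and brightness could be told apart only through CD replicate 1. Each result is therefore also given, where it matters, with brightness as a covariate and with the 4 dimmer CD arrays left out, so that CD replicate 1 was the only control. The single control array of that setting has no spread of its own, so the spread was taken from the 5 WD SW arrays alone, and its p-values compare these arrays, not the diets. In these settings 812 and 1623 of all tested probes passed, against 5444 without them. The median change of the 10 markers was 0.51 with the covariate and 0.52 when only CD replicate 1 was kept. The part of array brightness in the results was not tested beyond this.

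The 250 bases upstream of the start of the genes are shown for the markers whose groups did not overlap, Eng and Fcgr2b, and for the marker that was lower, Kdr (RefSeq, GRCm38.p6, 5′ to 3′ on the strand of the gene). Of the 10 markers, 7 matched an entry, and Lyve1, Pecam1 and Cdh5 were not among them. Capitals mark matches of the ETS-type motif AGGAAG or its reverse complement CTTCCT, and of the GC box GGGCGG or its reverse complement CCGCCC. ETS factors are regulators of endothelial genes, and the GC box is bound by Sp1. The Eng sequence lies at chr2:32646345-32646594 on the plus strand, that of Fcgr2b at chr1:170976072-170976321 on the minus strand and that of Kdr at chr5:75978456-75978705 on the minus strand.
Eng: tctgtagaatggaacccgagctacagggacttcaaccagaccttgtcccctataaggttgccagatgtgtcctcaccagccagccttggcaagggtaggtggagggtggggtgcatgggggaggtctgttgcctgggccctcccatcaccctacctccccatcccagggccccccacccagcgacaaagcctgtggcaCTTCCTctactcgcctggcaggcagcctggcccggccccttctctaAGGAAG
Fcgr2b: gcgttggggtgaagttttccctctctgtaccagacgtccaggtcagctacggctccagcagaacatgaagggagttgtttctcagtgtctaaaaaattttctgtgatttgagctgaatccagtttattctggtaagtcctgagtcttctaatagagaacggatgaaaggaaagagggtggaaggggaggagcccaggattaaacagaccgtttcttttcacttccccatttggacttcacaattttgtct
Kdr: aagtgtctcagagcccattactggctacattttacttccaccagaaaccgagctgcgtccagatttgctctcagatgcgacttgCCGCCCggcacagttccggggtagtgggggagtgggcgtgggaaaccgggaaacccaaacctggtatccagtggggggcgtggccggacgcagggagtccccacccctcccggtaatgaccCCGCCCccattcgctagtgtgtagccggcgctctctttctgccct

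The Eng sequence held the ETS-type letters once on each strand, and that of Kdr held the GC box letters at 2 places, both as CCGCCC. The Fcgr2b sequence held neither. The base composition differed too, with 62.4% G and C upstream of Eng, 45.2% upstream of Fcgr2b and 61.6% upstream of Kdr, against a median of 52.4% over all 32817 such windows. Over the 7 markers with an entry, the ETS-type letters were found for 4 (Eng, Clec4g, Stab2 and Stab1), and 29.5% of all windows held them. The GC box letters were found for Kdr alone, against 32.7% of all windows. The GATA-type letters AGATAA, or TTATCT on the other strand, were found for 0 of the 7, against 9.99% of all windows. None of the capital matches overlapped another. These are matches of letters in a window and no measure of binding.

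Of the scavenger and lectin receptors, Lyve1 encodes a receptor for hyaluronan. Its probe ILMN_2483304 had log2 signals of 6.79, 6.82, 7.87, 6.63 and 6.45 in WD SW livers, against 4.69, 5.02, 6.13, 5.37 and 6.75 in CD livers. In CD livers it was above background on 3 of the 5 arrays, and CD replicates 1 and 2 were the lowest. Each WD SW array exceeded 4 of the 5 CD arrays, and CD replicate 5 lay within the WD SW range. The means were 6.91 ± 0.55 in WD SW livers and 5.59 ± 0.84 in CD livers (SD, n = 5 each). Lyve1 was thus 2.50-fold higher in WD SW livers, a log2 change of 1.32 ± 0.35 (SE, 95% interval 0.58 to 2.07, limma adjusted p = 0.0104). This size rests in part on CD replicates 1 and 2, where the probe was not above background. Leaving out CD replicate 1 gave 1.10, and leaving out CD replicate 2 gave 1.18. The change passed in all 26 alternatives that gave a value, and it lay from 0.70 to 1.89 in 24 of them. The other 2, the brightness settings, rest on CD replicate 1, where this probe was not above background, and give no measured size. On the deposited scale, before any correction, the signals were 219, 205, 339, 183 and 153 in WD SW livers and 87.6, 90.1, 102, 91.7 and 121 in CD livers, with no overlap. That scale keeps the differences in array brightness, which was lower on most CD arrays.

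Fcgr2b encodes the inhibitory Fc receptor that binds small immune complexes, and in the liver most of it is carried by sinusoidal endothelium. Its brightest probe ILMN_1228657 had log2 signals of 8.27, 7.62, 7.36, 7.84 and 7.82 in WD SW livers, against 6.76, 6.71, 6.85, 6.57 and 6.29 in CD livers. All WD SW arrays were above all CD arrays. The means were 7.78 ± 0.34 in WD SW livers and 6.64 ± 0.22 in CD livers (SD, n = 5 each), and the change was 2.21-fold (log2 1.15 ± 0.17, 95% interval 0.77 to 1.52, limma adjusted p = 0.000270). With brightness as a covariate it was 0.91 ± 0.28 and did not pass (adjusted p = 0.0804), and against CD replicate 1 alone it was 1.02 ± 0.29 (adjusted p = 0.0546). The other tested probes of the gene, annotated to a different transcript record than the brightest, did not pass. ILMN_3102376 differed by 0.32 ± 0.17 (adjusted p = 0.153) and ILMN_3029178, above background on 2 WD SW and 3 CD arrays, by -0.18 ± 0.18 (adjusted p = 0.471). The remaining 2 probes were above background on 0 and 1 arrays. The gene shares closely similar sequence with Fcgr3 in its extracellular part, and the probe's sequence was not analysed here, so cross-hybridisation was not tested.

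Stab1 and Stab2 encode stabilin-1 and stabilin-2, the large scavenger receptors of the sinusoid, of which stabilin-2 clears hyaluronan. The brightest Stab1 probe, ILMN_1231355, had log2 signals of 8.52, 7.88, 8.46, 8.16 and 7.72 in WD SW livers, against 7.88, 7.71, 8.23, 8.39 and 8.27 in CD livers. The groups overlapped over most of their range, and the change was 0.05 ± 0.19 (95% interval -0.35 to 0.45, adjusted p = 0.866). The other Stab1 probes, annotated to a different transcript record than the brightest, differed from it and from each other in direction. ILMN_2544343 had 6.22, 7.14, 6.82, 6.85 and 6.65 in WD SW livers, against 7.77, 7.57, 7.44, 7.67 and 7.98 in CD livers, and every WD SW array was below every CD array. This change was -0.95 ± 0.17, or 1.93-fold lower (95% interval -1.32 to -0.58, adjusted p = 0.000985). ILMN_2727432 had 6.59, 6.11, 6.38, 6.24 and 6.48 in WD SW livers, against 5.99, 5.84, 5.85, 6.29 and 5.45 in CD livers, with 1 CD array inside the WD SW range, and was higher by 0.47 ± 0.16 (95% interval 0.12 to 0.82, adjusted p = 0.0399). This increase was lost in 13 of 25 alternatives, among them the fit on the deposited normalized table (0.24, adjusted p = 0.0503) and the number in the sample titles as a random block (0.49, adjusted p = 0.0754). The decrease of ILMN_2544343 was lost in 3, which were brightness as a covariate (-0.95, adjusted p = 0.0785), CD replicate 1 as the only control (-1.03, adjusted p = 0.0539) and scaling on the median of all probes (-0.15, adjusted p = 0.613). No single direction can be given for Stab1. Over the array, 3367 genes had more than 1 tested probe, and in 168 of them 1 probe passed as higher and another as lower. On the deposited scale the probe ILMN_2544343 read 160, 244, 196, 203 and 169 in WD SW livers and 318, 187, 157, 164 and 199 in CD livers, which overlap.

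Stab2 had log2 signals of 7.44, 7.30, 7.15, 7.83 and 7.80 in WD SW livers, against 7.17, 6.91, 7.01, 7.56 and 6.78 in CD livers. Of the 5 CD arrays, CD replicates 1 and 4 lay within the WD SW range and the other 3 lay below it. The change was 0.42 ± 0.18 (95% interval 0.03 to 0.80), which did not pass over all probes (adjusted p = 0.0930). Without CD replicate 4 it was 0.53 and passed (adjusted p = 0.0316). Clec4g, which encodes the sinusoidal C-type lectin LSECtin, was bright on every array, with 11.85, 12.06, 11.45, 11.91 and 11.87 in WD SW livers, against 11.25, 11.51, 11.71, 12.08 and 11.66 in CD livers. The groups overlapped, and the change was 0.19 ± 0.17 (95% interval -0.17 to 0.55, adjusted p = 0.421). Its second probe was above background on 2 arrays and was not tested.

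**Figure D2:**
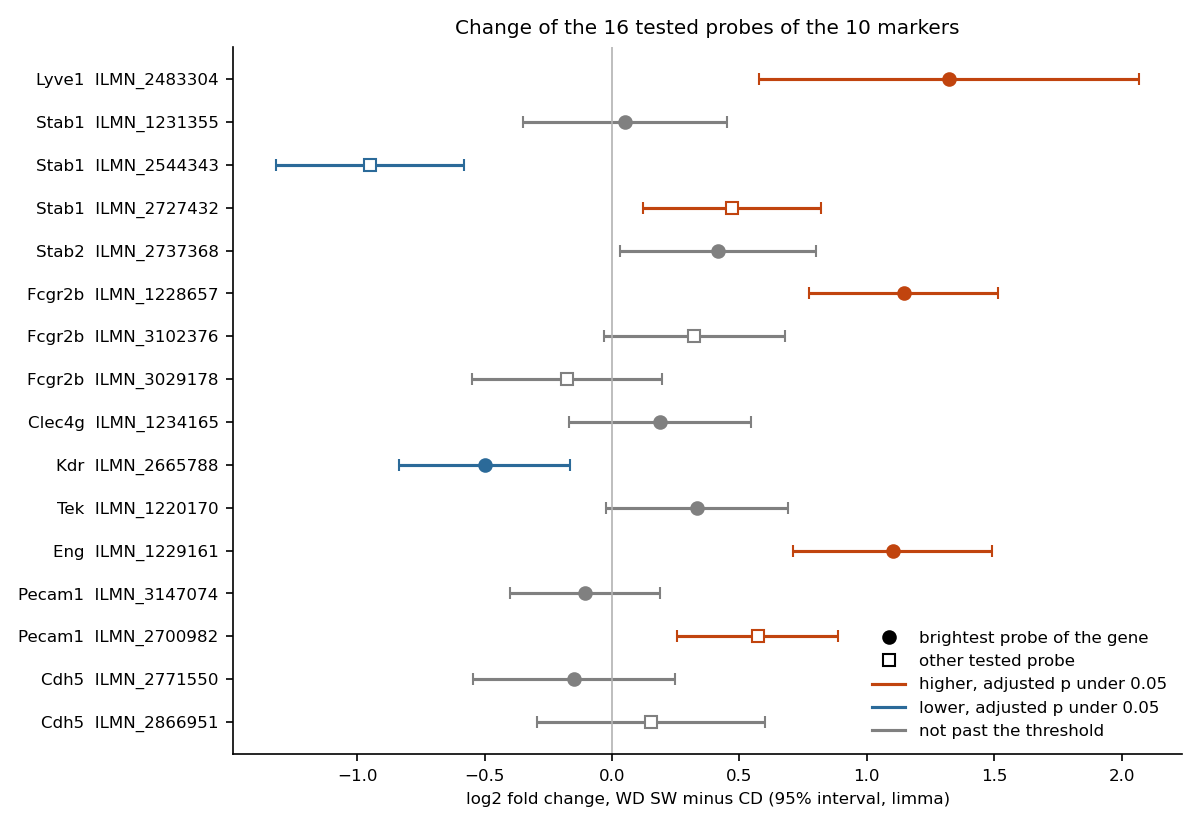
Log2 change, WD SW minus CD, of the 16 tested probes of the 10 markers with 95% intervals, ordered by gene. The Stab1 probes lie on both sides of 0, from -0.95 to 0.47, and the largest increases are those of Lyve1 at 1.32, the brightest Fcgr2b probe at 1.15 and Eng at 1.10.

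Eng, Kdr and Tek encode receptors for growth factors. Endoglin, the product of Eng, is a co-receptor for bone morphogenetic protein 9 and transforming growth factor beta. Its probe ILMN_1229161 had log2 signals of 6.69, 6.27, 6.75, 7.23 and 6.41 in WD SW livers, against 5.68, 5.53, 5.85, 5.21 and 5.59 in CD livers, of which CD replicate 4 was not above background. All WD SW arrays were above all CD arrays, with means of 6.67 ± 0.37 in WD SW livers and 5.57 ± 0.24 in CD livers (SD, n = 5 each). The change was 2.14-fold (log2 1.10 ± 0.18, 95% interval 0.71 to 1.49, adjusted p = 0.000527). It was 0.99 ± 0.31 in both brightness settings, which did not pass (adjusted p = 0.0805 for the covariate and 0.0704 for CD replicate 1 alone). The deposited signals were 207, 157, 190, 248 and 150 in WD SW livers and 114, 97.8, 96.4, 89.8 and 94.7 in CD livers, which do not overlap. These signals were not scaled for array brightness, which was lower on most CD arrays.

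Kdr encodes vascular endothelial growth factor receptor 2, the main receptor through which the factor acts on endothelium. It was the marker that was lower, and its call was lost in more alternatives than those of Lyve1, Fcgr2b and Eng. Its probe ILMN_2665788 had log2 signals of 5.25, 5.52, 5.34, 5.20 and 5.10 in WD SW livers, against 5.34, 5.96, 5.66, 6.05 and 5.90 in CD livers. CD replicate 1 lay within the WD SW range and the other 4 CD arrays lay above it. Kdr was 1.41-fold lower in WD SW livers, a log2 change of -0.50 ± 0.16 (95% interval -0.83 to -0.17, adjusted p = 0.0247). The call was lost in 10 of 27 alternatives, among them brightness as a covariate (-0.12 ± 0.23, adjusted p = 0.820), CD replicate 1 as the only control (-0.06), scaling on the median of all probes (-0.10 ± 0.14, adjusted p = 0.590) and the number in the sample titles as a random block (-0.50, adjusted p = 0.0623). It was also lost on leaving out any of WD SW replicates 1, 4 and 5 or CD replicates 2 and 4, with a change of -0.49 to -0.43 (adjusted p 0.0528 to 0.0629). The deposited signals were close to background, at 98.0, 114, 102, 93.1 and 85.7 in WD SW livers and 103, 106, 93.8, 101 and 99.1 in CD livers, and all 5 CD arrays lay within the WD SW range. The second Kdr probe was above background on 0 arrays. Tek, which encodes the angiopoietin receptor TIE2, had 7.29, 7.0, 6.75, 7.30 and 7.17 in WD SW livers, against 6.37, 7.11, 6.99, 6.61 and 6.76 in CD livers. The groups overlapped, and the change was 0.33 ± 0.17 (95% interval -0.03 to 0.69, adjusted p = 0.145).

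Pecam1 and Cdh5 encode the junction proteins CD31 and VE-cadherin, which hold endothelial cells together. The brightest Pecam1 probe, ILMN_3147074, had log2 signals of 5.13, 5.41, 5.26, 5.58 and 5.35 in WD SW livers, against 5.52, 5.39, 5.37, 5.71 and 5.26 in CD livers, and differed by -0.11 ± 0.14 (95% interval -0.40 to 0.19, adjusted p = 0.594). A dimmer probe, ILMN_2700982, is annotated to a different transcript record than the brightest. It had 5.78, 5.26, 5.74, 5.59 and 5.63 in WD SW livers, against 4.95, 5.16, 4.97, 4.76 and 5.29 in CD livers, where it was above background on 2 of 5 arrays. It was higher in WD SW livers by 0.57 ± 0.15 (95% interval 0.26 to 0.89, adjusted p = 0.00920), and 1 CD array reached the WD SW range. That call was lost in both brightness settings, although the probe was not above background on CD replicate 1, on which they rest (0.59, adjusted p = 0.191, with the covariate), without CD replicates 3 and 4 (0.46, adjusted p = 0.0521) and on scaling by detected probes (-0.02, adjusted p = 0.925). The third Pecam1 probe was above background on 0 arrays. Cdh5 had 6.62, 6.51, 6.73, 6.85 and 6.84 in WD SW livers, against 6.25, 7.36, 7.07, 6.65 and 6.97 in CD livers, and the CD arrays spanned the whole WD SW range. Its change was -0.15 ± 0.19 (95% interval -0.55 to 0.25, adjusted p = 0.573), and that of its other probe 0.15 ± 0.21 (adjusted p = 0.614).

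Over the 16 tested probes, 5 were higher in WD SW livers and 2 were lower. Among all 17368 tested probes, 17.3% were higher, 14.1% were lower and 31.3% changed in either direction. Groups that did not overlap were found for 2 probes above (Fcgr2b and Eng) and 1 below (Stab1), whereas 11.5% of all probes had all WD SW arrays above all CD arrays, 9.38% below and 20.9% either. Array by array, the number of markers above their own mean over the 10 arrays was 7, 7, 4, 9 and 7 in WD SW livers and 1, 3, 4, 5 and 4 in CD livers. The median deviation of the 10 markers from that mean was 0.25, 0.04, -0.09, 0.27 and 0.17 in WD SW livers, against -0.44, -0.31, -0.03, 0.06 and -0.11 in CD livers. The lowest array was CD replicate 1, whose brightness matched that of the WD SW arrays, and WD SW replicate 3 lay below CD replicates 3 and 4.

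**Figure D3:**
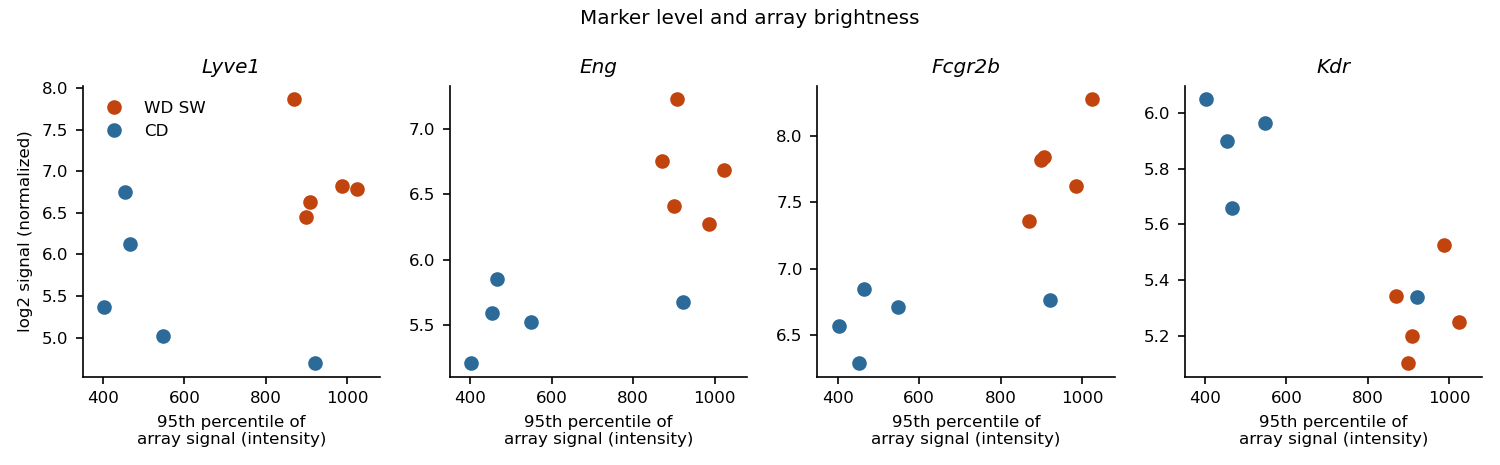
Normalized log2 signal of the 4 markers that passed, Lyve1, Eng, Fcgr2b and Kdr (y axes), against the 95th percentile of the deposited signals of the array (x axes), 1 point per array. CD replicate 1, at 921 on the x axis beside the WD SW arrays at 870 to 1023, lies below all WD SW arrays for Lyve1, Eng and Fcgr2b but among them for Kdr, where the 4 dim CD arrays are the highest.

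The counts of calls moved with the scaling. With quantile normalization 55.1% of the probes that passed were higher in WD SW livers. Scaling each array on its median over all probes moved the median of all probes to 0.46, made 97.3% of the passing probes higher, and called 8 markers higher and 0 lower. With that scaling 48.5% of all tested probes passed. Scaling on the probes above background on all arrays, an alternative chosen after the values had been seen, moved the median of all probes to -0.34, made 20.4% of the passing probes higher, and called 3 markers higher and 2 lower. With this scaling 51.0% of all tested probes passed. Lyve1, Fcgr2b and Eng were higher under quantile normalization and under both of these scalings. Kdr was below 0 in each, but under scaling on all probes it was only -0.10 ± 0.14 and did not pass (adjusted p = 0.590). The same fit on the deposited normalized table gave smaller changes, which all passed. They were 0.70 ± 0.21 for Lyve1 (adjusted p = 0.0290), 0.79 ± 0.12 for Fcgr2b (adjusted p = 0.000705), 0.59 ± 0.11 for Eng (adjusted p = 0.00213) and -0.24 ± 0.08 for Kdr (adjusted p = 0.0355).

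**Figure D4:**
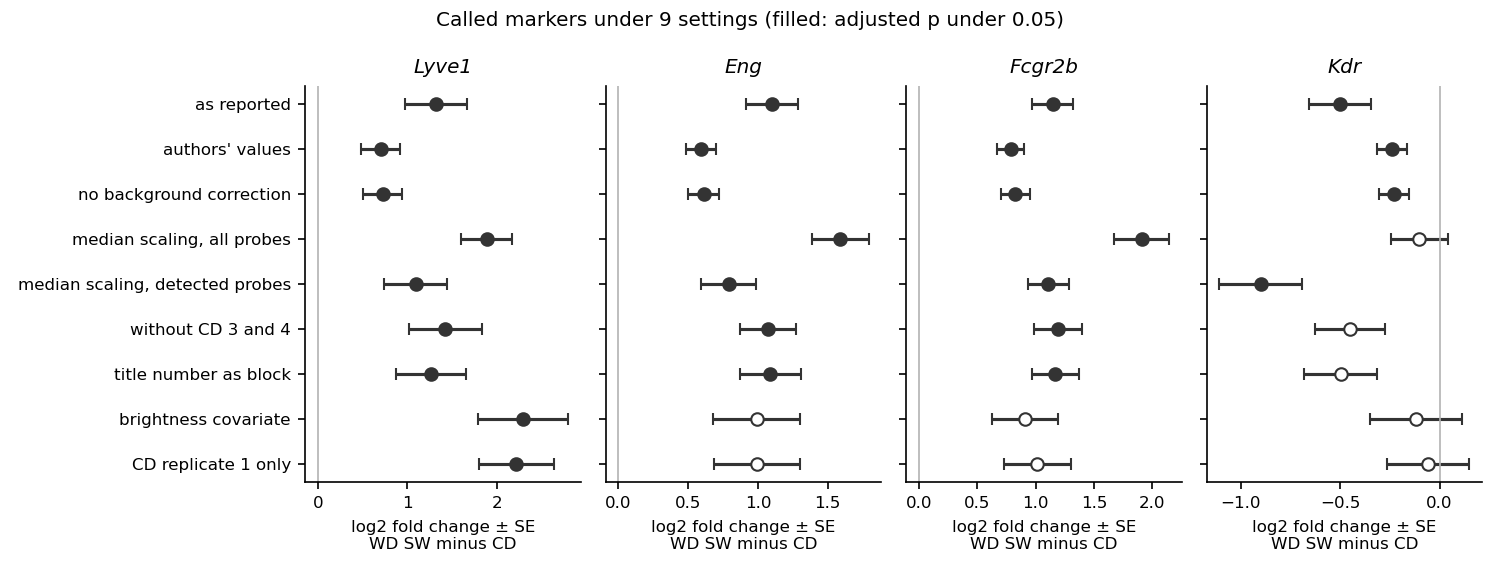
Log2 change, WD SW minus CD, with its SE for Lyve1, Eng, Fcgr2b and Kdr (1 panel each) under 9 settings of the processing (rows), filled where the adjusted p was under 0.05. Lyve1, Eng and Fcgr2b lie above 0 and Kdr below 0 in all 9, and Lyve1 alone is filled in every setting, although its last 2 rows rest on CD replicate 1, where it was not above background.

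Other sinusoidal genes were read from lists whose members did not include the markers. Of 15 further sinusoidal genes tested, 5 were higher in WD SW livers and 0 were lower, with a median of 0.20. Of these 5, Il1a and Cd36 passed the filter through the WD SW arrays alone. They could thus hardly have counted as lower, and the count leans towards higher. Over all genes 14.5% were higher, 15.4% were lower and 30.0% passed in either direction. The counts of the lists below are to be read against these shares. Which liver cells carried the RNA of the 5 higher genes was not tested. Mrc1, the mannose receptor, was higher by 0.95 ± 0.17 (adjusted p = 0.000739), with no overlap of the groups. Il1a and Cd36 were above background on all 5 WD SW arrays and on 0 CD arrays, and were at least 1.36-fold and at least 1.33-fold higher. These bounds set the WD SW mean against, per CD array, the higher of the lowest signal above background and the signal of the probe, and they hold for the quantile-normalized signals. Under scaling on detected probes neither call held, with changes of 0.23 for Il1a (adjusted p = 0.327) and 0.11 for Cd36 (adjusted p = 0.70). Igfbp7 was higher by 0.74 ± 0.24 and the factor VIII gene F8 by 0.60 ± 0.16, both with overlap. The other 10 tested genes did not pass by their brightest probe, among them Dnase1l3 at -0.04, Gpr182 at 0.07 and Aqp1 at 0.19. The other tested probe of Gpr182 lay at 0.85, and the 3 tested probes of Aqp1 lay from 0.19 to 1.30. Clec1b, Bmp2, Bmp6 and Maf were not above background.

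Of 23 tested genes of endothelium in general, 7 were higher and 1 was lower, against 14.5% and 15.4% of all genes. Their median was 0.22. The largest increases were those of Esam, an adhesion molecule of endothelial junctions, by 1.13 ± 0.18, of the secreted factor gene Egfl7 by 0.88 ± 0.16 (its 3 tested probes lay from 0.02 to 0.96) and of the guidance receptor gene Robo4 by 0.87 ± 0.19, all without overlap. Ephb4, a receptor of venous endothelium, changed by -0.61 ± 0.19, but by 0.20 under scaling on all probes, and its other tested probe lay at 0.13. It kept its call in 21 of 27 alternatives. The next list held ligands, co-receptors and signal carriers that act with Kdr, Tek, Eng and Cdh5, and also the secreted factor genes Wnt2, Wnt9b and Rspo3. Of its genes 17 were tested, 1 was higher and 4 were lower, with a median of 0.13. Vegfa, the main ligand of Kdr, changed by -0.57 ± 0.19 (0.04 under scaling on all probes) and its co-receptor gene Nrp1 by -0.81 ± 0.21, both with every WD SW array below every CD array. Vegfa kept its call in 14 of 27 alternatives, and leaving out any of WD SW replicates 1, 3, 4 and 5 or CD replicates 2, 3 and 5 ended it, with changes of -0.59 to -0.40 (adjusted p 0.0507 to 0.0749). Id3, a target of bone morphogenetic proteins, changed by -0.83 ± 0.25 (-0.08 under scaling on all probes) and kept its call in 19 of 27 alternatives. It was lost without WD SW replicate 1 or 3 or CD replicate 2 or 3, with changes of -0.74 to -0.66 (adjusted p 0.0531 to 0.0615). Smad1, which carries that signal, changed by -0.56 ± 0.14. Vegfc, a ligand of the receptor gene Flt4, changed by 0.62 ± 0.18. Flt4 was on the list of further sinusoidal genes and is shared with lymphatic endothelium. Flt1, which encodes the other receptor for Vegfa, changed by 0.00 ± 0.17. The ligand genes Gdf2 and Bmp10 of endoglin, and Angpt1 of TIE2, were not above background.

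Of 18 tested genes of receptor-mediated scavenging and uptake, 3 were higher and 2 were lower, with a median of 0.19. The adaptor subunit gene Ap2a2 was higher by 0.86 ± 0.20, the late endosome gene Rab7 by 0.72 ± 0.15 and the recycling endosome gene Ehd1 by 0.50 ± 0.18. Lrp1, a large endocytic receptor gene, changed by -0.90 ± 0.18 and the lysosomal receptor gene Scarb2 by -0.69 ± 0.13. Under scaling on all probes these changes were -0.09 for Lrp1 and 0.11 for Scarb2. Lrp1 also lost its call with brightness as a covariate (-0.46, adjusted p = 0.366). Ehd1 was above background on 2 of 5 CD arrays and kept its call in 9 of 26 alternatives, and it was -0.07 under scaling on detected probes and 0.21 without background correction (adjusted p = 0.0732). The number in the sample titles as a random block ended the calls of Vegfa, Id3, Ephb4 and Ehd1 (adjusted p 0.0516 to 0.0821). Over this and all other lists beside the markers, 45 of 123 genes passed, against 30.0% of all genes. With brightness as a covariate 15 of the 123 passed, against 4.68% of all tested probes.

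**Figure D5:**
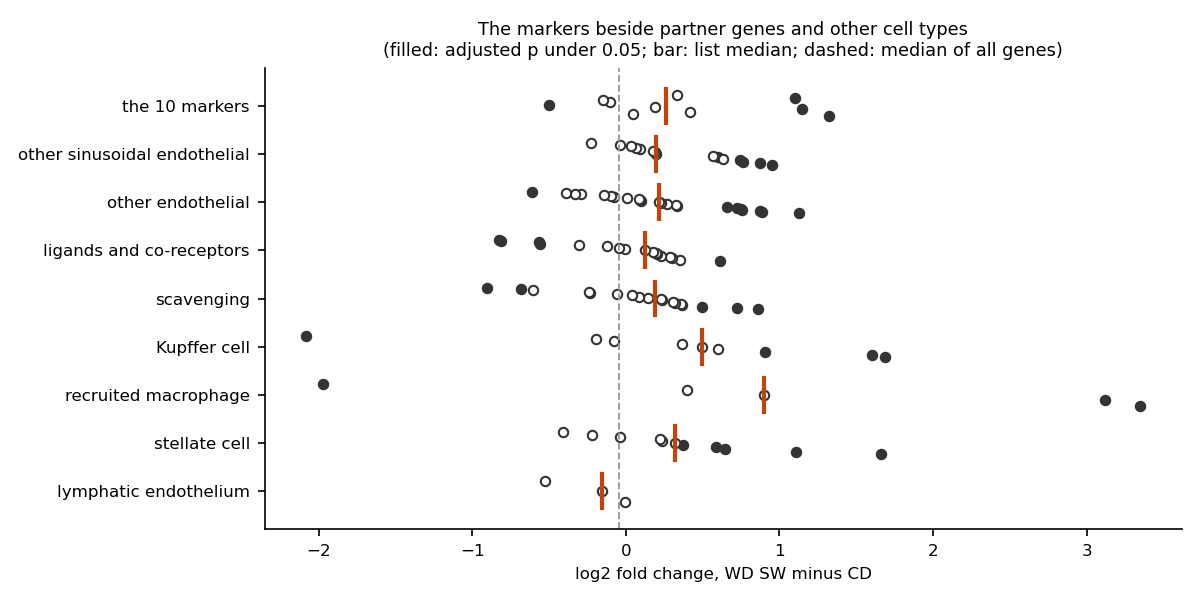
Log2 change, WD SW minus CD, by gene (brightest tested probe) for the 10 markers and for the lists of partner genes and of other cell types, 1 point per gene, with the median of each list as a bar. The median of the markers is 0.26, that of other sinusoidal genes 0.20 and that of all genes tested -0.05.

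Markers of other cell types also differed between the diets, and the values are given here since several of the 10 markers are shared with such cells. Of 9 tested Kupffer cell genes, 3 were higher and 1 was lower, with a median of 0.50, and Cd5l and Marco were not above background. C1qb was higher by 1.69 ± 0.26, C1qc by 1.60 ± 0.33 and Csf1r by 0.91 ± 0.20, while Cd163 changed by -2.08 ± 0.29 and the defining genes Clec4f and Timd4 by -0.08 ± 0.17 and -0.19 ± 0.14, which did not pass. The summed linear signal of the Kupffer cell list was 2268 to 3463 in WD SW livers and 1452 to 3145 in CD livers. Of 5 tested genes of recruited macrophages, Mmp12 and Gpnmb were higher by 3.35 ± 0.37 and 3.12 ± 0.33 and Fabp5 changed by -1.97 ± 0.33, with a median of 0.90 and sums of 800 to 3258 in WD SW livers and 460 to 1182 in CD livers, and Trem2, Itgax, Ccr2 and Itgam were not above background. In CD livers Mmp12 was above background on 1 array and Gpnmb on 2, so the sizes of these changes rest on CD signals mostly at background. Of 11 tested stellate cell genes, 5 were higher and 0 were lower, led by Ecm1 at 1.66 ± 0.27 (its other tested probe lay at 0.03), Colec11 at 1.11 ± 0.17 and Col1a1 at 0.64 ± 0.22, with a median of 0.32 and sums of 8125 to 10230 in WD SW livers and 5986 to 7390 in CD livers. Col1a1 was above background on 1 CD array and kept its call in 10 of 25 alternatives, and it was -0.01 under scaling on detected probes.

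Of 3 tested genes of lymphatic endothelium, 0 passed, with a median of -0.15. Prox1, which defines that cell type, changed by -0.53 ± 0.30 (adjusted p = 0.195) and is also made by hepatocytes, and the sums were 252 to 418 in WD SW livers and 302 to 742 in CD livers. Of 2 tested B cell genes 0 passed, with a median of 0.18 and sums of 71.4 to 80.4 in WD SW livers and 56.8 to 84.0 in CD livers, and Ms4a1 was not above background. The brightest tested B cell gene, Cd79b, changed by 0.36 ± 0.14 (adjusted p = 0.0600). The T and NK cell list had 2 tested genes and the platelet list 2, of which 0 passed, and the brightest of these were Cd3d at 0.35 ± 0.15 (adjusted p = 0.101) and Pf4 at 0.33 ± 0.19 (adjusted p = 0.217). The medians were 0.36 for T and NK cells, with sums of 65.4 to 81.6 in WD SW livers and 50.7 to 80.0 in CD livers, and 0.22 for platelets, with sums of 83.6 to 119 in WD SW livers and 70.6 to 114 in CD livers. Of 12 tested hepatocyte genes 2 were higher (Trf at 1.43 ± 0.23 and Asgr1 at 0.84 ± 0.22) and 5 were lower, led by Alb at -1.93 ± 0.22, Pck1 at -1.34 ± 0.37 and Serpinc1 at -0.56 ± 0.15, with a median of -0.18. The summed hepatocyte signal, to which the brightest probes add most, ran the other way, at 86791 to 103488 in WD SW livers and 71801 to 86351 in CD livers. The 1 tested Alb probe was far dimmer than that of Ttr, another hepatocyte gene. Its means were 7.16 in WD SW and 9.09 in CD livers, against 14.74 and 14.77 for Ttr. How well this probe stands for all Alb RNA was not tested. The 1 tested cholangiocyte gene, Sox9, changed by -2.09 ± 0.23 (-0.37 by its other probe), with sums of 292 to 519 in WD SW livers and 978 to 2262 in CD livers. Of 3 red cell genes Hba-a1 was higher by 0.90 ± 0.21 and Slc4a1 changed by -0.78 ± 0.29, with a median of -0.05 and sums of 4924 to 6717 in WD SW livers and 2829 to 4765 in CD livers. The part of these cell types in the values of the 10 markers was not tested.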

How the data were processed

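The authors deposited 2 tables of linear probe intensity for the 10 arrays, 1 not normalized and 1 normalized by a method not given in the sources used here, and 0 value columns went unused. The first table was the starting point. The background of an array was the most frequent log2 signal, a mode (kernel bandwidth 0.02), and a probe was detected above it at a one-sided p of 0.05. Signals were corrected by normexp (offset 16, fitted to all probes), quantile normalized and tested on the log2 scale with limma 3.58.1 in R 4.3.3, over the 17368 probes detected on at least 5 of 10 arrays, with Benjamini-Hochberg adjustment and a threshold of 0.05. The script was tested on simulated data. The array holds 1 signal per probe, and the number of arrays limits the precision. Quantile normalization gives every array the same distribution and hides any shift shared by most genes.

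Diets were taken from the labels. By the platform annotation, 34885 probes had 1 gene symbol, 18 several and 10378 none, and 34807 matched the RefSeq table by gene identifier. The brightest tested probe stood for each gene, and the summed signal of a list added these probes on the linear scale. Differences between diets were tested within a probe. The highest correlation between arrays of a diet was 0.988, and no array was counted as a repeat of another. The correlation alone cannot tell separate mice from repeats, and the labels were followed. The markers and lists were chosen with earlier results of these data known. All 10 markers were named with every probe, and of the other lists the up to 3 genes called higher and up to 3 called lower with the largest change, or the brightest tested gene where fewer than 3 were called. Any other gene named was chosen after its values were seen. Alternatives changed the background correction, scaling, starting table, filter, probe choice, variance model, array weights, block, brightness covariate, control arrays and each array left out.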

Additional observations from a re-analysis of the deposited data

Results flagged for a closer look

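Lyve1 in WD SW replicate 3, at 7.87 on the log2 scale, stood apart from the other 4 WD SW arrays, of which the nearest was 6.82. The gap was 0.739 of the range of the 5 WD SW arrays, above Dixon's limit of 0.71. In all, 32 sets of 5 arrays were examined in this way for the 16 tested probes, 1 stood apart, and chance does this in about 1 of 20 such sets. Without this array Lyve1 was higher in WD SW livers by 1.08 (limma adjusted p = 0.0270).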

How the results depend on the processing

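No paired analysis was possible because the replicate numbers follow only the listing and no label pairs WD SW with CD arrays. A number of unstated meaning in the titles was used instead as a random block (consensus correlation 0.207), which left 3 markers higher and 0 lower, and 1 probe lower. In that fit 23.7% of all tested probes passed. With all probes scaled on their median, 8 markers and 12 probes were higher, 0 were lower, the median of the markers was 0.99, 8424 probes and 84 genes of the other lists passed, and signs turned for Pecam1 (0.15), Cdh5 (0.65), Vegfa (0.038), Ephb4 (0.20) and Scarb2 (0.11). Scaling on detected probes, chosen after the data were seen, gave 2 markers lower, 3 probes higher, 4 lower and 8866 passing, and turned Clec4g (-0.12), Pecam1 ILMN_2700982 (-0.025), Cdh5 ILMN_2866951 (-0.28), Ehd1 (-0.066) and Col1a1 (-0.013). With brightness as a covariate, 1 marker and 1 probe were higher, 0 were lower, the median was 0.51, 812 probes and 15 genes of the other lists passed, and Fcgr2b ILMN_3102376 (-0.10) and Cdh5 (0.28) turned. Against CD replicate 1 alone, 1 marker and 1 probe were higher, 0 were lower, the median was 0.52, 1623 probes and 24 genes of the other lists passed, and Fcgr2b ILMN_3102376 (-0.071), Cdh5 (0.46) and Ehd1 (-0.024) turned. Averaging probes per gene turned Stab1 (-0.14), Pecam1 (0.23) and Cdh5 (0.0014), with 3001 genes passing, and 3004 passed with the brightest probe alone. Requiring detection on all 10 arrays left 8 markers, without Lyve1 and Eng, of which 1 was higher and 1 lower, with 2 probes higher, and made 41.5% of all passing probes higher. Under that filter 37.5% of all tested probes passed. Without CD replicates 3 and 4, 4 markers were higher, 0 were lower and 1 probe was lower, and 25.6% of all tested probes passed. Leaving out each array in turn gave 3 to 4 markers higher, 0 to 1 lower, 4 to 6 probes higher, 1 to 2 lower, a median of 0.16 to 0.35, 4284 to 6019 passing probes and 36 to 49 genes of the other lists. Stab1 ranged from -0.047 to 0.16 and turned without WD SW replicate 1 or 3 or CD replicate 1 or 2, and Cdh5 ILMN_2866951 ranged from -0.00086 to 0.33 and turned without CD replicate 5. The cause was not tested. Lyve1 kept its call in 26 of 26 alternatives, of which 2 rest on an array where it was not above background, Fcgr2b in 25 of 27, Eng in 24 of 26 and Kdr in 17 of 27. Signals near background, as for Kdr and Pecam1, limit the precision.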
